A study of Mus musculus with 15 samples.

Results

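Wild-type mouse mammary epithelium was followed over the opening 36 h of migration beside a bead that carried fibroblast growth factor 10 (FGF10). The comparison set 3 libraries taken at 36 h with FGF10 (replicates 1, 3 and 4) against 3 libraries taken at 0 h (replicates 1, 2 and 4), which are 6 of the 15 libraries of the series, and it covered every expressed gene. The series asks whether mammary epithelium undergoes an epithelial-mesenchymal transition (EMT) as it moves collectively. All groups used here were organoids, small multicellular pieces of gland grown in culture, from mammary gland of genotype WT, labelled as mammary epithelial cells. Their medium was DMEM/F12 with L-Ala-Gln, insulin-transferrin-selenium (ITS) and penicillin-streptomycin (P/S). Beads had been soaked in FGF10 for the FGF10 36 h group and in bovine serum albumin (BSA) for the BSA 36 h group. The BSA 36 h group had 3 libraries (replicates 1, 2 and 3) and served as the reference of equal age. Strain, age and sex of the mice, the number of animals and whether replicates came from separate cultures were not given in the labels. All 15 libraries of the series were fitted together, so the p-values measure the spread between libraries within groups, which may be technical. Change over 36 h of culture and change caused by FGF10 cannot be told apart in the comparison with 0 h alone. FGF10 36 h against BSA 36 h tests whether the change differed between the beads.

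FGF10 is a secreted ligand that mesenchyme makes in many branching organs, and it acts on epithelium mainly through the epithelial form of the receptor Fgfr2. Receptor activation leads to ERK signalling, to transcription of the ETS factors Etv4 and Etv5, and to feedback inhibitors such as the Sprouty proteins and the ERK phosphatase Dusp6. In the mammary gland, FGF signalling supports bud formation and duct branching, and a local source of FGF10 can draw epithelium towards it. Complete EMT replaces E-cadherin (Cdh1) with N-cadherin (Cdh2), raises vimentin and fibronectin, and is driven by Snail, Zeb and Twist factors, whereas partial forms keep much of the epithelial programme. Mammary epithelium has an inner luminal layer that makes milk and an outer basal layer of contractile myoepithelial cells.

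Library depth ran from 11965322 to 24261233 assigned fragments at 0 h, from 15386578 to 17408522 with FGF10 and from 15581146 to 18732149 with BSA. Levels are given as CPM, which are counts scaled to library size with edgeR's trimmed mean of M-values, always in the order of replicates 1, 2, 4 for 0 h, 1, 3, 4 for FGF10 36 h and 1, 2, 3 for BSA 36 h. Differences are log2 values ± SE (n = 3 libraries per group), and a gene counted as called when edgeR's quasi-likelihood test over all genes gave it an adjusted p (Benjamini-Hochberg) under 0.05. At 0 h, replicate 1 stood apart, with summed transcripts of mitosis genes at 2352 CPM against 379.6 and 318 CPM in replicates 2 and 4, so results are given with and without it wherever it mattered. Replicate 4 of FGF10 36 h had 1.11% of its counts on mitochondrial transcripts, against 3.97% and 3.60% in replicates 1 and 3 and 2.16% to 2.59% at 0 h. Of the labelled cell type's markers, Epcam stood at 2882, 3590 and 3919 CPM at 0 h and 2799, 2369 and 1736 CPM with FGF10, while markers of blood vessel, stroma and leukocytes were present at 0 h and are given further on.

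Between 0 h and 36 h with FGF10, 7225 of 18140 tested genes (39.8%) were called. Of all tested genes, 3504 (19.3%) were higher and 3721 (20.5%) lower, and the median difference over all genes was 0.01. A count of list members near these shares is not a result about the list. The 3 libraries at 0 h and the 3 with FGF10 did not overlap in 8141 tested genes (44.9%), so a lack of overlap was common. Among the 7225 called genes 6582 did not overlap, so separation is not a further result for a gene that was called. At least 2-fold changes made up 1663 of the rises and 2092 of the falls, and at least 8-fold changes made up 265 and 475. Without 0 h replicate 1, 3451 of 18634 tested genes were higher (18.5%) and 3430 lower (18.4%). Of the 7225 genes, 6090 kept their call and direction without that library, 1134 lost it and none of the genes called in both reversed. With BSA beads, which share the 0 h libraries, 2312 genes (12.7%) were higher and 2604 (14.4%) lower at 36 h. In FGF10 36 h against BSA 36 h, 173 genes (0.954%) were higher and 252 (1.39%) lower with FGF10, and 303 of the 7225 genes (4.19%) were among them. That total of 425 became 852 without 0 h replicate 1, 199 without BSA replicate 2, 127 without BSA replicate 3 and 203 without FGF10 replicate 1. Differences between the beads are given below for 50 named genes, and all kept their sign in every alternative fit, but only 11 kept their call in all of them, namely Tslp, Tnc, Fst, Col18a1, Wfdc2, Sdc1, Dsg3, Itga3, Btn1a1, C4b and Igfbp5. Of the 50 genes, 29 lost the call without BSA replicate 3 and 23 without BSA replicate 2. A further fit without FGF10 replicate 1 ended it for 18, and leaving out 0 h replicate 1 for none. For the other named genes the difference between the beads was not called.

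**Figure D1:**
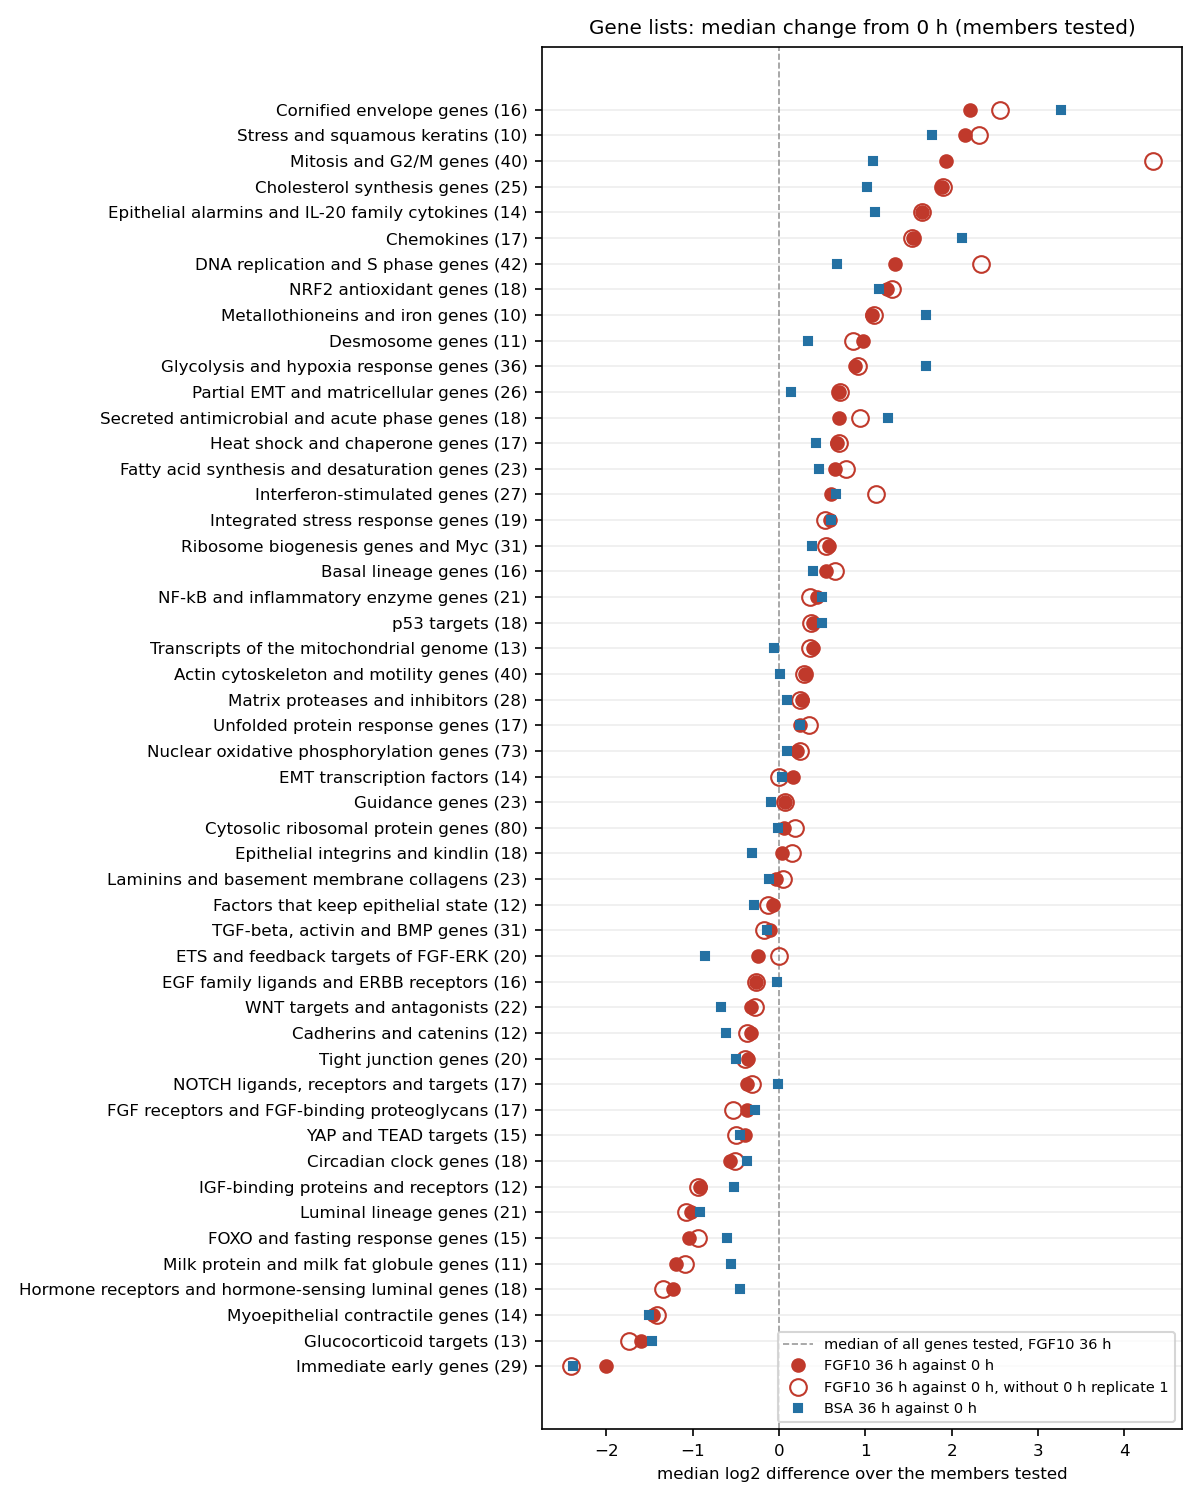
Median log2 difference from 0 h for each gene list other than the cell type markers (members tested in brackets), for FGF10 36 h with all 0 h libraries (filled circles), FGF10 36 h without 0 h replicate 1 (open circles) and BSA 36 h (squares), which share the 0 h libraries. The dashed line is the median of all tested genes (0.01). Mitosis genes moved from 1.94 to 4.33 when replicate 1 was left out, and immediate early genes lay lowest of the plotted lists in both FGF10 fits.

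The largest rises, picked only among genes whose 0 h and FGF10 libraries did not overlap, included those of Spp1, Gpx2 and Tnip3. Spp1, which encodes the matrix protein osteopontin, went from 0.760, 0.290 and 0.165 CPM at 0 h to 924, 1143 and 1728 CPM with FGF10 (11.45 ± 0.46, adjusted p = 2.64e-09). All 3 FGF10 libraries lay far above all 0 h libraries, and BSA libraries were also high (494, 488 and 498 CPM). Gpx2, a glutathione peroxidase of epithelia, stood at 4.86, 1.26 and 1.32 CPM and then 1163, 459 and 1244 CPM (8.5 ± 0.64, adjusted p = 1.49e-06), with no overlap between the groups. Tnip3, which encodes an inhibitor of NF-kB signalling, rose by 8.43 ± 0.81 (adjusted p = 1.62e-05). Several of the largest rises started from no or nearly no counts. The chemokine Ccl20 had 0 counts in all 3 libraries at 0 h and 847 with FGF10, at least 299-fold higher when 0 is set to 3 counts over the group. Computed the same way, the keratinocyte gene Krtdap was at least 229-fold higher, the protease inhibitor Serpinb2 at least 127-fold, the cytokine Il24 at least 117-fold and Tmem213 at least 96.6-fold. Cxcl5, a neutrophil-attracting chemokine, had 3 counts at 0 h and 1996 with FGF10, a ratio of 704 (95% counting interval 240.0 to 3410). Most of the Cxcl5 counts came from FGF10 replicate 1 (107, 12.3 and 8.86 CPM), and limma voom did not call the gene (adjusted p = 0.173). Dsg3, a desmosomal cadherin, had 3 counts against 1183, a ratio of 417 (142 to 2030). Prl2c3 and Prl2c5, placental prolactin-family members whose near-identical copies can share reads and whose values are therefore uncertain, were at least 186-fold and 424-fold (145 to 2060) higher. Neither these (adjusted p = 0.167 and 0.185) nor Tmem213 (0.0579) were called by limma voom.

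Several of the largest falls ended at or near 0 counts with FGF10. Sbp had 4745 counts at 0 h and 0 with FGF10, at least 1500-fold lower, and BSA libraries also held 0, 0 and 0 CPM. Cytl1, which encodes a small secreted protein, had 1786 counts at 0 h and 1 with FGF10, a ratio of 1690 (303 to 66700), though limma voom did not call it (adjusted p = 0.314). Cd300lg, Lepr and C1qtnf9 had 503, 464 and 293 counts at 0 h and 0 with FGF10, at least 159-fold, 146-fold and 92.4-fold lower. The water channel Aqp1 went from 1834 counts to 3, a ratio of 578 (197 to 2810), with an adjusted p of 0.103 in limma voom. Cd300lg and Aqp1 are expressed by small blood vessels, whose markers fell as a list (given further on), and the part of vessel loss in these values was not tested. In bulk RNA, fewer cells of a type and less RNA per cell cannot be told apart.

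Immediate early genes, which cells switch on within minutes of a stimulus or of tissue dissociation without needing new protein, had the lowest median of the lists that are not markers of other cell types. Of 29 tested members, 19 fell and 3 rose, with a median of -2.0 against 0.01 over all genes. Their summed level was 11100, 46880 and 29480 CPM at 0 h and 1721 to 2707 CPM with FGF10, so that the lowest 0 h library, replicate 1, still lay above every 36 h library. Without replicate 1, 20 fell and 3 rose (median -2.4). With BSA, 19 fell and 4 rose, and no member differed between the beads.

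Promoter windows of 2 of these genes are printed because the cyclic AMP response element core TGACG, which CREB-family factors can bind, occurred in many windows of the list. RefSeq windows on GRCm38.p6 run from 250 bases before to 50 bases after each annotated start. The motif was present on either strand in 21 of 34 windows of the list (61.8%), covering 15 of 25 members with a window, and in 20.8% of all 32851 windows. TGANTCA, the AP-1 element, was in 1 of 34 windows of the list (2.94%) and in 7.81% of all windows. The windows are Fos at chr12:85473640-85473939 on the plus strand and Btg2 at chr1:134079106-134079405 on the minus strand, each written 5′ to 3′ along its gene. Capitals mark matches to TGACG or its reverse complement, and in Btg2 a pair of matches overlaps in a palindrome. A match describes the letters of the window and is neither a bound site nor a cause of a change.
Fos: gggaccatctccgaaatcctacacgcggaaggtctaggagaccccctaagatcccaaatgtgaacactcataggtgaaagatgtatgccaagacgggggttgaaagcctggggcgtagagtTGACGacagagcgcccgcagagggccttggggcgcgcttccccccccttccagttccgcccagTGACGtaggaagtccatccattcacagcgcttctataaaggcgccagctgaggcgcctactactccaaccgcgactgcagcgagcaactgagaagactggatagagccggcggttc
Btg2: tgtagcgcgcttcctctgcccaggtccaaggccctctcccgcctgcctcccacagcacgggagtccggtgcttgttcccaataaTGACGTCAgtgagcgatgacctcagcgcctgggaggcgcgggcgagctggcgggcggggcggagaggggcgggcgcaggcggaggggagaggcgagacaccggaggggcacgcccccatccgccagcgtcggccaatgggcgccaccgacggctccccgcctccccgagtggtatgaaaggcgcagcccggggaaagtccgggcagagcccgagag

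Fos, an AP-1 subunit, stood at 4125, 20850 and 12630 CPM at 0 h and at 70.2, 74.5 and 45 CPM with FGF10 (-7.63 ± 0.53, adjusted p = 4.05e-07). Every 36 h library lay far under every 0 h library, and the difference between FGF10 and BSA was not called (-0.06 ± 0.40, adjusted p = 0.956). Btg2, an antiproliferative cofactor that p53 also induces, went from 546, 1466 and 1122 CPM to 86.6, 91.7 and 58.6 CPM (-3.73 ± 0.29, adjusted p = 7.07e-07). Replicate 1 had the least of both transcripts among the 0 h libraries. Further falls were measured for Fosb (-8.39 ± 0.59, adjusted p = 1.06e-06), Jun (-5.35 ± 0.34, adjusted p = 1.05e-07), Ier2 (-4.09 ± 0.30, adjusted p = 5.18e-07), the MAP kinase phosphatase Dusp1 (-4.36 ± 0.55, adjusted p = 0.000102) and Egr1 (-4.55 ± 0.45, adjusted p = 9.29e-06). Members that rose were Fosl2, an AP-1 subunit of later phases (1.22 ± 0.20, adjusted p = 0.000354), the nuclear receptor Nr4a2 (1.4 ± 0.27, adjusted p = 0.00111) and Ier3 (2.04 ± 0.54, adjusted p = 0.0102). In Ier3 the groups overlapped, as FGF10 replicate 4 had 294 CPM and 0 h replicate 2 had 306 CPM.

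Genes induced by glucocorticoid, by FOXO factors in fasting and by the circadian clock fell more often than they rose. Of 13 glucocorticoid targets, 8 fell and 0 rose (median -1.6), and of 15 FOXO and fasting genes 10 fell and 0 rose (median -1.04). The counts with BSA were 8 and 0 for glucocorticoid targets and 7 and 2 for FOXO and fasting genes. A rise of 1 glucocorticoid target was called without FGF10 replicate 1, and 1 FOXO gene rose without 0 h replicate 1 or FGF10 replicate 3. Zbtb16, a zinc finger repressor induced by glucocorticoid, went from 12.4, 14.9 and 25.6 CPM to 1.5, 1.97 and 0.949 CPM (-3.57 ± 0.39, adjusted p = 1.09e-05). Tsc22d3, also called GILZ, fell by 1.93 on the log2 scale (adjusted p = 1.39e-06). Txnip, which inhibits thioredoxin and glucose uptake, stood at 1566, 1240 and 885 CPM at 0 h and at 54.9, 71.5 and 38.8 CPM with FGF10 (-4.48 ± 0.26, adjusted p = 7.75e-08). BSA libraries lay between (133, 138 and 118 CPM), and the difference between the beads was called (-1.23 ± 0.23, adjusted p = 0.0136). Pik3ip1, an inhibitor of PI3 kinase (-1.85 ± 0.14, adjusted p = 5.2e-07), and the insulin receptor substrate Irs2 (-1.56 ± 0.17, adjusted p = 1.14e-05) also fell. Of 18 clock genes 8 fell, among them the repressor Nr1d1 (-2.32 ± 0.29, adjusted p = 4.84e-05) and Per1 (-1.6 ± 0.27, adjusted p = 0.000393), and 2 rose, namely Cry1 (0.92 ± 0.19, adjusted p = 0.00159) and Ciart (1.38 ± 0.32, adjusted p = 0.00373).

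**Figure D2:**
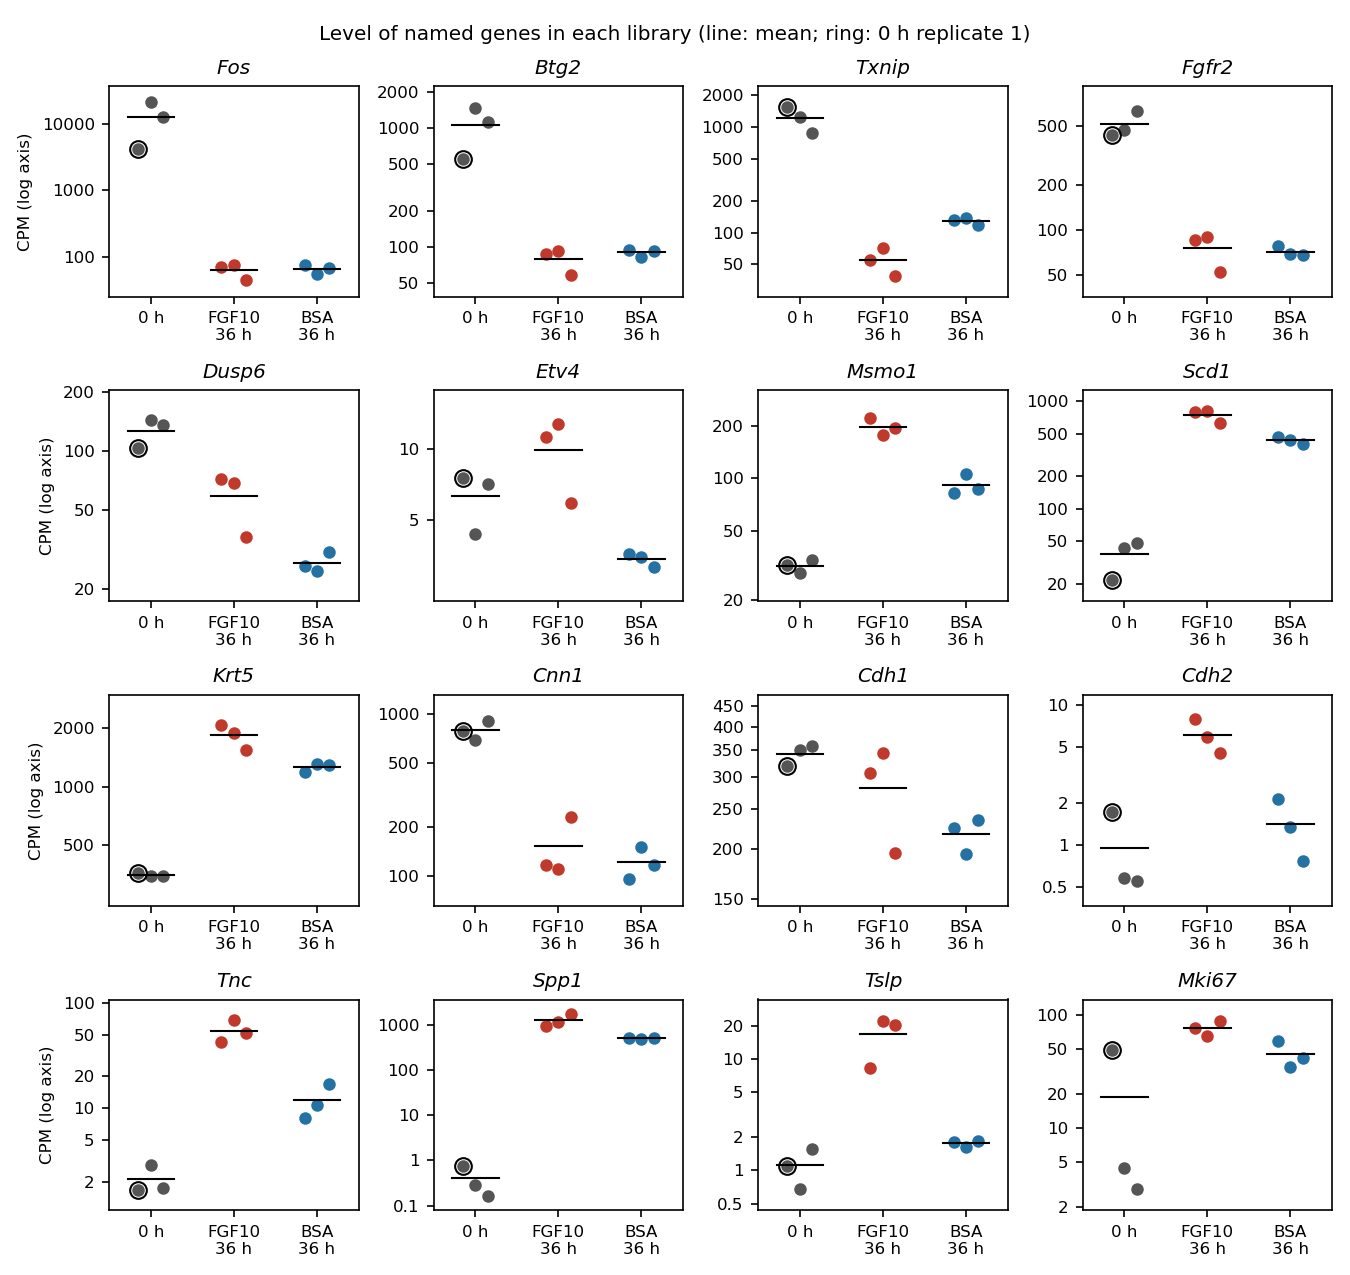
CPM of 16 named genes in each library on log axes, for 0 h, FGF10 36 h and BSA 36 h, where points are libraries, lines are group means and the ring marks 0 h replicate 1. Fos, Btg2, Txnip and Fgfr2 were low in all 36 h libraries, whereas Cdh2, Tnc and Tslp were higher with FGF10 than with BSA or at 0 h. In Mki67, 0 h replicate 1 lay beside the 36 h libraries and apart from replicates 2 and 4.

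No DNA replication or mitosis gene fell, and how many rose depended on 0 h replicate 1 and on the test. Of 42 DNA replication and S phase genes, 27 rose and 0 fell (median 1.34), and of 40 mitosis and G2/M genes 9 rose (22.5%, near the 19.3% of all genes) and 0 fell (median 1.94). With the same libraries, limma voom called 39 mitosis genes higher and DESeq2 called 23. Without replicate 1, 42 of 42 and 39 of 40 rose, with medians of 2.34 and 4.33, against 18.5% of all tested genes. The counts also moved with other libraries. DNA replication genes called higher fell to 9 without 0 h replicate 2, 10 without 0 h replicate 4, 12 without FGF10 replicate 1 and 10 without FGF10 replicate 4. Summed mitosis transcripts were 3085 to 3847 CPM with FGF10, above all 3 libraries at 0 h. Summed DNA replication transcripts were 2186 to 2887 CPM with FGF10, and 0 h replicate 1 (2174 CPM) lay just under the lowest of them, while replicates 2 and 4 had 579.9 and 597 CPM. In the fit with all libraries, 3 and 1 members of these lists rose with BSA, and no member of either list differed between the beads. Summed BSA levels were 1368 to 1914 CPM for DNA replication and 1693 to 2476 CPM for mitosis, under every FGF10 library. Median differences between the beads were 0.63 and 0.79. The spread used by the bead test includes 0 h replicate 1, and bead counts of these lists are not given without it.

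**Figure D3:**
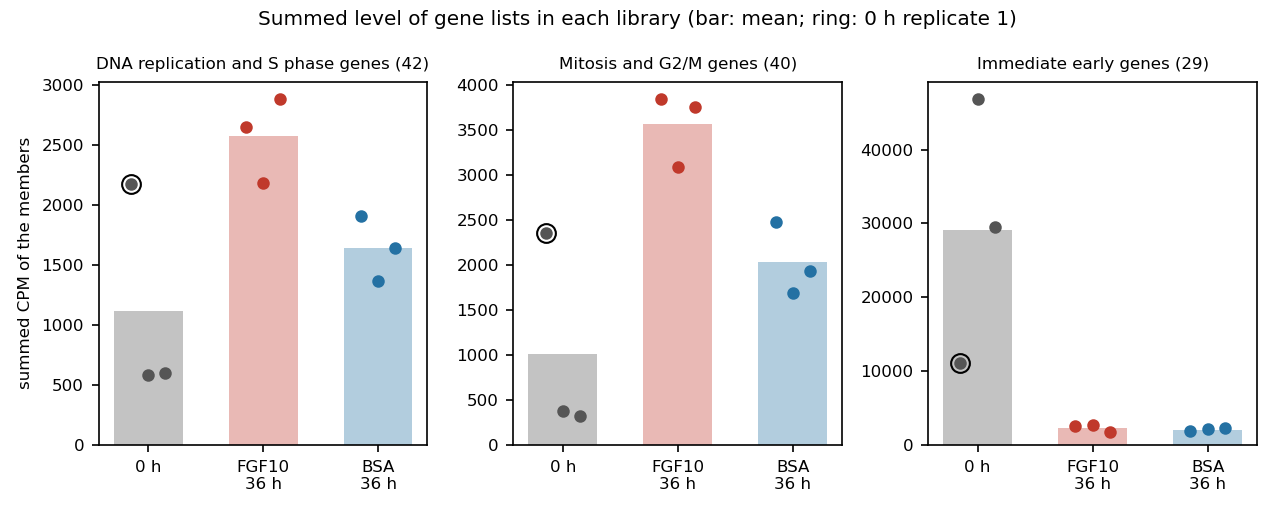
Summed CPM of the tested members of the DNA replication, mitosis and immediate early lists in each library, where points are libraries, bars are group means and the ring marks 0 h replicate 1. Replicate 1 lay near the 36 h libraries for DNA replication genes and within the BSA range for mitosis genes, and it had the smallest immediate early sum of the 0 h libraries.

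Mki67, the proliferation antigen Ki-67, stood at 49.1, 4.45 and 2.92 CPM at 0 h and at 77.6, 66 and 89.6 CPM with FGF10. The difference missed the threshold with all libraries (2.01 ± 0.77, adjusted p = 0.0581) and passed it without 0 h replicate 1 (4.43 ± 0.32, adjusted p = 1.88e-07). With all libraries kept, limma voom (3.61, adjusted p = 0.000931) and DESeq2 (2.07, adjusted p = 0.0242) called it. The mitotic kinase Cdk1 had 185, 11.4 and 5.67 CPM and then 264, 202 and 296 CPM (1.91 ± 0.92, adjusted p = 0.12, and 4.92 ± 0.33, adjusted p = 9.64e-08, without replicate 1). Its partner cyclin B1 (Ccnb1) gave 2.1 ± 0.90 (adjusted p = 0.0839) and, without replicate 1, 5.47 ± 0.34 (adjusted p = 5.81e-08), one of the largest shifts of any well expressed gene, together with Ankle1. With all libraries, limma voom called Cdk1 (adjusted p = 0.00181), Ccnb1 (0.000582) and Ankle1 (0.00386), and DESeq2 called Ccnb1 (0.0493). Genes called with all libraries included Pole2, a subunit of the replicative polymerase epsilon, at 8.87, 3.39 and 2.81 CPM and then 23.3, 20.8 and 19.8 CPM (2.05 ± 0.31, adjusted p = 0.000182). Plk4, the kinase that starts centriole duplication, rose from 17.1, 4.55 and 3.8 CPM to 46.6, 32 and 28.3 CPM (2.03 ± 0.45, adjusted p = 0.00343). Neither gene's groups overlapped, although 0 h replicate 1 was the highest 0 h library in both. The helicase subunit Mcm6, in contrast, had 288, 69.3 and 82.4 CPM at 0 h and 176, 146 and 144 CPM with FGF10 (0.08 ± 0.41, adjusted p = 0.897), and it was called without replicate 1 (1.03 ± 0.20, adjusted p = 0.00114).

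The windows of Anln, the cytokinetic ring protein anillin, and of Mki67 are printed because the cell cycle genes homology region TTTGAA, to which the DREAM and B-MYB complexes bind, was common in the list. It occurred on either strand in 27 of 37 windows of mitosis genes (73.0%), covering 24 of 34 members with a window, and in 17.9% of all windows. CCAAT was in 26 of the 37 windows (70.3%) and in 37.4% of all windows. Of the windows of DNA replication genes, 6 of 39 (15.4%) held the E2F motif TTTCCCGC, against 1.07% of all windows. Anln lies at chr9:22389157-22389456 and Mki67 at chr7:135716330-135716629, both on the minus strand, and capitals mark TTTGAA or its reverse complement.
Anln: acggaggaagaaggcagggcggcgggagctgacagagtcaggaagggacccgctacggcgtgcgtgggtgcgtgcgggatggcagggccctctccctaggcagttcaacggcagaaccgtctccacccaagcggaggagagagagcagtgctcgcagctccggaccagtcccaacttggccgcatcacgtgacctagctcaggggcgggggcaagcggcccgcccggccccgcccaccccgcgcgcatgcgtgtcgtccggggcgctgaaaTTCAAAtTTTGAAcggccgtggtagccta
Mki67: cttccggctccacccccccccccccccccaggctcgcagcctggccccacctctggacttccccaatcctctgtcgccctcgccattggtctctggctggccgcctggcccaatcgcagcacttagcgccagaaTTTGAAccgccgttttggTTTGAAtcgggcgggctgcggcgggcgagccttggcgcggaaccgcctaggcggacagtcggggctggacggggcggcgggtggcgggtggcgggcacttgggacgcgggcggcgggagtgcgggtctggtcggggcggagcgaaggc

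Anln rose from 32.7, 9.1 and 3.8 CPM to 74.9, 82.4 and 63.1 CPM (2.25 ± 0.54, adjusted p = 0.00689), and all FGF10 libraries lay above all 0 h libraries. Fitting only the 0 h and FGF10 36 h groups gave an adjusted p of 0.0666. Ribosome biogenesis genes moved by less and more evenly. Of 31 members 22 rose and 0 fell (median 0.58), and 19 rose without replicate 1. Utp20, of the small subunit processome, rose from 9.25, 10.3 and 10.1 CPM to 24.7, 18.3 and 20.6 CPM (1.1 ± 0.15, adjusted p = 8.04e-05). Gnl3, which encodes nucleostemin, rose by 1.0 ± 0.12 (adjusted p = 2.19e-05). Myc itself, the factor that drives many of these genes, had 117, 76.2 and 106 CPM and then 111, 99.8 and 74.2 CPM (-0.07 ± 0.18, adjusted p = 0.788).

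**Figure D4:**
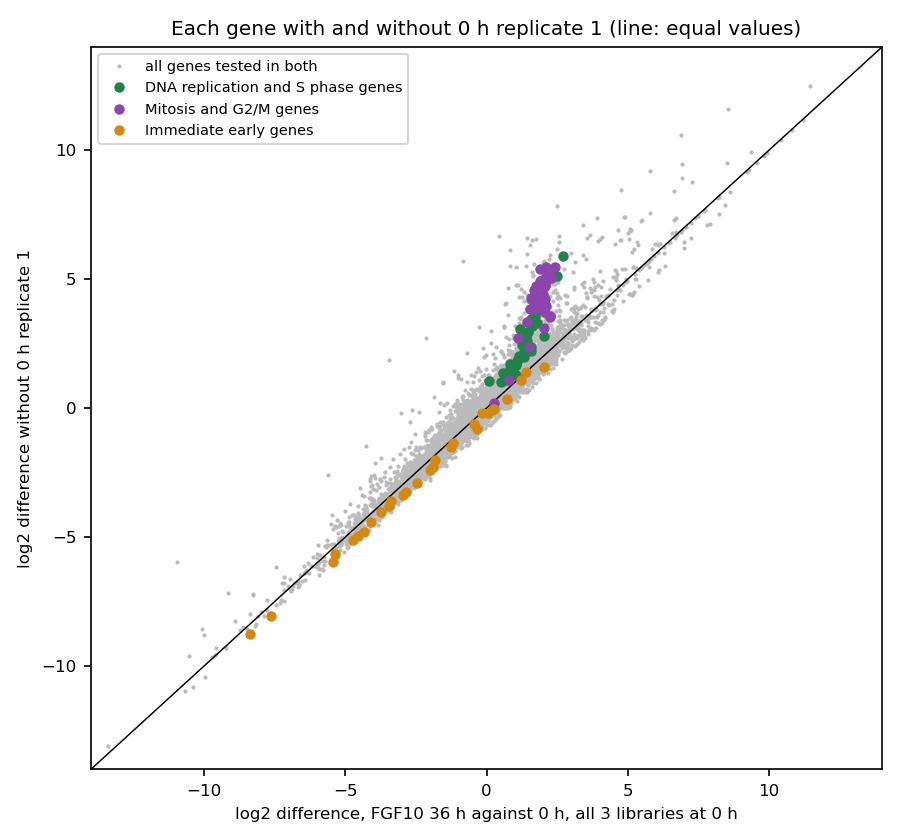
Log2 difference of each gene, FGF10 36 h against 0 h, with all 3 libraries at 0 h (horizontal) and without 0 h replicate 1 (vertical), where the line marks equal values. The medians of mitosis and DNA replication genes lay above the line, and that of immediate early genes lay under it.

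Cholesterol synthesis genes rose nearly as a whole. Of 25 members 24 rose and 0 fell with a median of 1.89, and the count was 24 without 0 h replicate 1 as well. With BSA 20 rose (median 1.02), and 10 members were higher with FGF10 than with BSA. These genes are targets of SREBP2, which cells activate when membrane cholesterol is low. Its gene Srebf2 had 132, 147 and 118 CPM and then 178, 190.4 and 93.9 CPM (0.22 ± 0.22, adjusted p = 0.458), and it was called without FGF10 replicate 4 (0.033).

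One window is shown for the list, that of Hmgcs1 at chr13:119690101-119690400 on the plus strand. It was chosen after its values were seen, as the only one of 17 members with a window that held the sterol element TCACNCCAC. The element was in 1 of 20 windows of the list (5.0%) and in 1.24% of all windows. Capitals mark it.
Hmgcs1: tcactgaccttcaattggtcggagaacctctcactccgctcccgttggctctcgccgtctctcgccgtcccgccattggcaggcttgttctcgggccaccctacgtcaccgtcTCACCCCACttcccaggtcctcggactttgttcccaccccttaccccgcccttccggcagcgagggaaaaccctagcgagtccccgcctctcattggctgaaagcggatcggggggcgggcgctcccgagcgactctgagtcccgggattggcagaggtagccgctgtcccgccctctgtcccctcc

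Hmgcs1, which makes HMG-CoA ahead of the rate-limiting step, rose from 22.9, 13.6 and 22.6 CPM to 134, 82.6 and 103 CPM (2.42 ± 0.24, adjusted p = 6.1e-06). It was also higher than with BSA (1.17 ± 0.23, adjusted p = 0.0197). Msmo1, a sterol demethylase, stood at 32.1, 28.6 and 34 CPM at 0 h, 222, 178 and 195 CPM with FGF10 and 82.3, 106 and 87.3 CPM with BSA. The 3 groups did not overlap, and both the rise from 0 h (2.65 ± 0.15, adjusted p = 3.83e-08) and the difference from BSA (1.11 ± 0.14, adjusted p = 0.00141) were called. Fdps, farnesyl diphosphate synthase, rose from 1.9, 2.9 and 1.71 CPM to 15.1, 15 and 15.7 CPM (2.85 ± 0.23, adjusted p = 1.04e-06). Cyp51, another sterol demethylase, rose by 2.41 ± 0.21 (adjusted p = 1.66e-06).

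Of 23 fatty acid synthesis and desaturation genes 12 rose and 2 fell (median 0.65), or 1 fell without FGF10 replicate 3 or 4. Scd1, the desaturase that makes oleate, went from 21.6, 43.5 and 48.3 CPM to 790.5, 809 and 631 CPM (4.3 ± 0.25, adjusted p = 7.75e-08). All FGF10 libraries lay far above all 0 h libraries. Scd2 rose by 3.74 ± 0.23 (adjusted p = 1.04e-07), fatty acid synthase (Fasn) by 2.02 ± 0.16 (adjusted p = 8.12e-07) and the elongase Elovl6 by 2.2 ± 0.21 (adjusted p = 3.2e-06). Fasn and Elovl6 were also higher than with BSA (0.89 ± 0.16, adjusted p = 0.00935, and 1.1 ± 0.20, adjusted p = 0.0103). Gpam, which starts triglyceride synthesis, fell by 1.25 on the log2 scale (adjusted p = 0.000836).

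Glycolysis and hypoxia response genes rose in 19 of 36 cases and fell in 4 (median 0.88). With BSA 28 rose and 2 fell (median 1.71), and 4 members were lower with FGF10 than with BSA. The HIF motif core ACGTG was in 28 of 52 windows of the list (53.8%) and in 19.6% of all windows. Pkm, pyruvate kinase, went from 1180, 1123 and 882 CPM to 4749, 5683 and 5105 CPM (2.29 ± 0.21, adjusted p = 2.11e-06). Enolase 1 (Eno1), whose processed copies make its counts uncertain, rose by 2.12 ± 0.17 (adjusted p = 6.62e-07), and the carbonic anhydrase Car9, a marker of hypoxia, by 3.03 ± 0.28 (adjusted p = 2.37e-06). Aldoc, aldolase C, had 255, 247 and 206 CPM at 0 h, 98.6, 87.8 and 132 CPM with FGF10 and 185, 257 and 207 CPM with BSA. It fell from 0 h with FGF10 (-1.15 ± 0.19, adjusted p = 0.000277) and was lower than with BSA (-1.03 ± 0.19, adjusted p = 0.0105). Of 73 nuclear oxidative phosphorylation genes 7 rose and 2 fell, and these counts became 3 and 12 without FGF10 replicate 4, the library with few mitochondrial counts, and 14 and 1 without FGF10 replicate 3. They were 3 and 1 without 0 h replicate 2 and 2 and 1 without 0 h replicate 4, and 1 gene fell without 0 h replicate 1, FGF10 replicate 1 or BSA replicate 1 or 3. Of 13 transcripts of the mitochondrial genome 2 rose, 9 without FGF10 replicate 4 and 0 without any 1 of the 0 h libraries or of FGF10 replicates 1 and 3, and 1 rose without any 1 of the BSA libraries.

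Genes of the antioxidant factor NRF2 rose in 14 of 18 cases and fell in 2 (median 1.25), or in 1 without 0 h replicate 2, BSA replicate 2, FGF10 replicate 1 or FGF10 replicate 4. They rose in 14 cases and fell in 1 with BSA (median 1.16). Nqo1, a quinone reductase and standard NRF2 target, stood at 27.6, 54.3 and 49.1 CPM at 0 h and 541, 510.3 and 515 CPM with FGF10 (3.58 ± 0.22, adjusted p = 9.53e-08). BSA libraries were higher still, at 721, 746 and 728 CPM, a difference that was not called (-0.49 ± 0.20, adjusted p = 0.19). The cystine transporter Slc7a11 (4.58 ± 0.67, adjusted p = 0.000226) and sulfiredoxin Srxn1 (1.86 ± 0.14, adjusted p = 6.62e-07) rose, whereas Gclc, the catalytic subunit of glutathione synthesis, fell from 329, 298 and 344 CPM to 153, 179 and 104 CPM (-1.16 ± 0.18, adjusted p = 0.000241). Of 10 metallothionein and iron genes 5 rose and 0 fell. They included Mt1 (2.8 ± 0.25, adjusted p = 2.08e-06), the transferrin receptor Tfrc (2.48 ± 0.21, adjusted p = 1.39e-06) and ferritin light chain Ftl1 (2.52 ± 0.27, adjusted p = 8.2e-06), which has many processed copies.

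Chaperones rose in 12 of 17 cases, led by Hsph1 (1.72 ± 0.14, adjusted p = 1.06e-06) and the mitochondrial Hspe1 (1.53 ± 0.19, adjusted p = 3.68e-05). The stress-inducible Hspa1a, which has a near-identical neighbour, fell from 49.6, 172 and 185 CPM to 23.5, 39.6 and 18 CPM (-2.32 ± 0.45, adjusted p = 0.00164). Of 19 integrated stress response genes 9 rose and 2 fell, or 1 fell without 0 h replicate 2, with Mthfd2, a mitochondrial folate enzyme, up by 1.56 ± 0.20 (adjusted p = 4.14e-05). Of 17 unfolded protein response genes 6 rose and 4 fell, of which Manf rose by 1.01 ± 0.21 (adjusted p = 0.0018). Without 0 h replicate 4, or without FGF10 replicate 1 or 3, 2 of these genes fell. Of 18 p53 targets 7 rose and 3 fell. The cell cycle inhibitor p21 (Cdkn1a) went from 44.1, 69.6 and 35.8 CPM to 125, 192 and 315 CPM (2.08 ± 0.35, adjusted p = 0.000484), with all FGF10 libraries above all 0 h libraries.

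Basal lineage genes rose more often than they fell, and luminal, hormone-sensing, milk and contractile genes fell more often than they rose. Of 16 basal genes 8 rose and 1 fell (median 0.55), against 6 and 1 with BSA (median 0.4). Of these genes, 2 were higher with FGF10 than with BSA and 0 lower. Krt5, a basal keratin, stood at 361, 349.8 and 349.6 CPM at 0 h and at 2078, 1877 and 1542 CPM with FGF10 (2.37 ± 0.15, adjusted p = 1.3e-07), and its partner Krt14 rose by 2.59 ± 0.20 (adjusted p = 5.46e-07). The 0 h values of Krt5 lay close together and far under every FGF10 library. Id4, a helix-loop-helix inhibitor of basal and stem cells, had 72.5, 44.5 and 60.2 CPM, 186, 152 and 282 CPM with FGF10 and 21.1, 66.5 and 50.0 CPM with BSA. It rose from 0 h (1.8 ± 0.35, adjusted p = 0.00134) and was higher than with BSA (2.17 ± 0.35, adjusted p = 0.00776), where the BSA libraries reached no higher than the 0 h range. Integrin beta 4 (Itgb4), which anchors basal cells through hemidesmosomes, rose by 1.32 ± 0.15 (adjusted p = 1.37e-05). The basal factor Trp63 was called (0.52 ± 0.16, adjusted p = 0.0177) but not without 0 h replicate 2 (0.0722), without FGF10 replicate 1 (0.0745) or in a fit of only these groups (0.0536). The only fall, Krt15, was not called without 0 h replicate 4 (adjusted p = 0.156), FGF10 replicate 1 (0.107) or FGF10 replicate 3 (0.0959).

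Of 21 luminal genes 14 fell and 2 rose (median -1.02), against 12 and 1 with BSA (median -0.92). Of these genes, 1 was higher with FGF10 than with BSA and 0 lower. Foxa1, a pioneer factor of hormone-sensing luminal cells, went from 546, 396 and 609 CPM to 97.5, 149.9 and 75.8 CPM (-2.26 ± 0.29, adjusted p = 4.55e-05). Gata3, the luminal master factor, went from 497, 728 and 989.6 CPM to 138, 248 and 195 CPM (-1.93 ± 0.27, adjusted p = 9.54e-05). Neither pair of groups overlapped. The luminal keratin Krt8 had a difference of -0.3 ± 0.23 (adjusted p = 0.304). Aldh1a3, a retinal dehydrogenase of luminal progenitors, went the other way, from 97.6, 208 and 182 CPM to 1814, 1582 and 1282 CPM (3.26 ± 0.25, adjusted p = 5.8e-07). The other rise, Cldn7, was lost in 10 of 17 alternatives, among them those without any 1 of the 0 h libraries, FGF10 replicate 1 or 3, or BSA replicate 3 (adjusted p = 0.0571 to 0.204). Wfdc2, a secreted protease inhibitor, fell (-2.05 ± 0.28, adjusted p = 6.42e-05) yet stayed above BSA, with 1323, 1432 and 872 CPM against 280.1, 290.5 and 341 CPM (1.99 ± 0.28, adjusted p = 0.00268).

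Among 18 hormone receptor and hormone-sensing genes 9 fell and 2 rose (median -1.23), against 7 and 1 with BSA (median -0.45). The prolactin receptor Prlr went from 2132, 5014 and 5244 CPM to 368, 709.9 and 497 CPM (-2.98 ± 0.38, adjusted p = 4.43e-05), with every FGF10 library under every 0 h library. The WNT ligand Wnt4, which progesterone induces, fell by 2.06 on the log2 scale (adjusted p = 0.00139). Both rises were lost without 0 h replicate 4 or FGF10 replicate 3, and 1 of them without 0 h replicate 1, FGF10 replicate 1 or FGF10 replicate 4. Of 11 milk genes 5 fell and 0 rose, and 2 fell without FGF10 replicate 4. The counts with BSA were 2 and 0. Btn1a1, butyrophilin of the milk fat globule, had 50.3, 81.6 and 75.4 CPM, 6.14, 9.81 and 12.3 CPM with FGF10 and 27.6, 35 and 38.1 CPM with BSA (-2.87 ± 0.29, adjusted p = 8.15e-06, and against BSA -1.83 ± 0.28, adjusted p = 0.00562). Its 3 groups did not overlap.

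Myoepithelial contractile genes fell in 11 of 14 cases and rose in 1 (median -1.46). They fell in 12 cases and rose in 1 with BSA (median -1.5). Between the beads, 3 members were higher and 1 lower with FGF10. Cnn1, calponin, stood at 782, 691 and 895 CPM and then at 117, 111 and 231 CPM (-2.37 ± 0.28, adjusted p = 2.32e-05). Smooth muscle myosin Myh11 fell by 2.21 on the log2 scale (adjusted p = 1.39e-06) and smooth muscle actin Acta2 from 13080, 7987 and 10400 CPM to 5475, 3576 and 3452 CPM (-1.33 ± 0.27, adjusted p = 0.00142). The oxytocin receptor Oxtr, through which milk ejection is triggered, was lower than at 0 h (-1.88 ± 0.24, adjusted p = 3.93e-05) and lower than with BSA (-0.98 ± 0.23, adjusted p = 0.0417). Caldesmon (Cald1), which non-muscle cells also make, was the member that rose (1.45 ± 0.19, adjusted p = 4.9e-05). Vascular smooth muscle shares several of these genes, and pericyte and vascular smooth muscle markers summed to 44.1 to 87 CPM at 0 h and 26.3 to 41 CPM with FGF10. Their part in the fall was not tested.

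Keratinocyte-type genes rose more often than they fell, and 3 cornified envelope genes were lower with FGF10 than with BSA. Of 10 stress and squamous keratins 6 rose and 1 fell (median 2.16), against 7 and 1 with BSA (median 1.77). Krt6a, a keratin of wounded epidermis whose copies share reads and whose level is therefore uncertain, had 3.93, 4.64 and 1.16 CPM, 119, 321 and 229 CPM with FGF10 and 35.7, 64.9 and 77.3 CPM with BSA (6.13 ± 0.55, adjusted p = 6.84e-06). Krt16, its usual partner and equally uncertain, rose by 4.34 ± 0.31 (adjusted p = 5.2e-07), whereas the simple epithelial Krt23 fell by 2.24 on the log2 scale (adjusted p = 7.78e-05). Of 16 cornified envelope genes 11 rose and 1 fell. Their median was 2.22, or 1.97 with the 4 members that had 0 counts at 0 h set to their bound, and with BSA 11 rose and 1 fell (median 3.27). Sbsn, suprabasin, had 2.62, 1.84 and 2.92 CPM, 6.27, 12.2 and 11.3 CPM with FGF10 and 14.3, 24.8 and 23.6 CPM with BSA, so it rose (1.99 ± 0.26, adjusted p = 5.12e-05) and stayed under BSA (-1.07 ± 0.24, adjusted p = 0.0287). Tgm1, the cross-linking enzyme of the envelope, fell by 2.15 on the log2 scale (adjusted p = 9.08e-05).

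Desmosome genes rose more often than they fell, and tight junction genes fell more often than they rose. Of 11 desmosome genes 7 rose and 1 fell (median 0.98), or 2 fell without FGF10 replicate 3, and 3 were higher with FGF10 than with BSA. Besides Dsg3, the desmocollin Dsc3 rose from 1.44, 0.290 and 0.660 CPM to 8.36, 6.85 and 7.08 CPM (3.08 ± 0.35, adjusted p = 1.57e-05) and exceeded BSA (1.45 ± 0.31, adjusted p = 0.0259). Plakophilin 1 (Pkp1) rose by 1.42 ± 0.15 (adjusted p = 9.18e-06). Of 20 tight junction genes 6 fell and 2 rose (median -0.36), with falls at 30% against 20.5% of all genes. The falls numbered 4 without 0 h replicate 2 or 4 and 9 without FGF10 replicate 1. With BSA 7 fell and 1 rose, and no member differed between the beads. Occludin (Ocln) went from 61, 55.5 and 63.7 CPM to 39.1, 38.6 and 21.8 CPM (-0.86 ± 0.17, adjusted p = 0.00134) and Cldn8 from 68.5, 57.1 and 101 CPM to 14.9, 18.3 and 8.29 CPM (-2.45 ± 0.27, adjusted p = 1.19e-05), while Cldn1 rose by 2.36 ± 0.32 (adjusted p = 8.86e-05). Cldn7 was the other rise, and its call was lost as described above.

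Of the cadherins that define EMT, the change in the epithelial one was not called and the neural one rose from a low level. Cdh1 had 320.2, 351 and 358 CPM at 0 h and 307, 344 and 195 CPM with FGF10 (-0.28 ± 0.18, adjusted p = 0.23). FGF10 replicate 3 lay within the 0 h range, replicate 1 just under it and replicate 4 well under it. Cdh2 had 1.73, 0.581 and 0.550 CPM at 0 h, 7.97, 5.92 and 4.55 CPM with FGF10 and 2.14, 1.34 and 0.773 CPM with BSA. Every FGF10 library lay above every other one, and both the rise (2.6 ± 0.45, adjusted p = 0.000466) and the difference from BSA (2.11 ± 0.44, adjusted p = 0.023) were called. The difference from BSA was not called without BSA replicate 2, BSA replicate 3 or FGF10 replicate 1 (adjusted p up to 0.106). BSA against 0 h was not called for Cdh2 (0.49 ± 0.47, adjusted p = 0.472). Of 12 cadherins and catenins in all, 1 rose and 4 fell, the falls being Cdh6, Cdh11, Cdh13 and the vascular Cdh5, which limma voom did not call (adjusted p = 0.0982). Cdh13 lost its call without 0 h replicate 2 (0.109), FGF10 replicate 1 (0.0628) or FGF10 replicate 4 (0.0546). Epcam, an epithelial adhesion protein, fell (-0.59 ± 0.18, adjusted p = 0.0196), a call lost without 0 h replicate 2 (0.0555) or 4 (0.0782).

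EMT transcription factors were called about as often as other genes in each direction. Of 14 tested members 3 rose and 3 fell (21.4% each, against 19.3% and 20.5% of all genes), with a median of 0.16, and 0 rose without 0 h replicate 2 and 1 without 0 h replicate 1, FGF10 replicate 1 or FGF10 replicate 3. Snai1 was at 0.0845, 0.194 and 0.165 CPM and then 0.523, 1.1 and 0.380 CPM (2.24 ± 0.76, adjusted p = 0.0306), a call lost without 0 h replicate 1 (adjusted p = 0.108), 0 h replicate 2 (0.0501), 0 h replicate 4 (0.0657) or FGF10 replicate 3 (0.133) and in limma voom (0.135). Snai2, which basal cells express, had 74.3, 47 and 46.9 CPM and then 90.3, 61.2 and 54.1 CPM (0.29 ± 0.20, adjusted p = 0.268), and it was called without 0 h replicate 1 (0.54 ± 0.19, adjusted p = 0.0335). Zeb2 fell from 6.25, 13.2 and 3.41 CPM to 1.11, 0.713 and 0.886 CPM (-3.05 ± 0.51, adjusted p = 0.000337) and Zeb1 by 3.26 on the log2 scale (adjusted p = 0.0106, or 0.147 in limma voom). Twist1 had 23 counts at 0 h and 3 with FGF10, a ratio of 7.25 (2.19 to 37.7), and its call (adjusted p = 0.0141) was lost without 0 h replicate 1 (0.0801). Zeb1, Zeb2 and Twist1 are also made by stromal cells. Of 20 fibroblast markers 14 fell, or 5 in limma voom and 8 in a fit of only these groups, from sums of 319.8 to 887 CPM to 99.6 to 161 CPM, with none at 0 counts over the FGF10 group, and their part in these falls was not tested. Of 12 factors that maintain the epithelial state, 2 rose and 4 fell (16.7% and 33.3%). Klf5 rose (0.62 ± 0.11, adjusted p = 0.000661), and Elf3 (-1.69 ± 0.18, adjusted p = 7.94e-06) and Ovol2 (-1.0 ± 0.21, adjusted p = 0.00184) fell.

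Partial EMT and matricellular genes rose in 15 of 26 cases and fell in 5 (median 0.7), against 7 rises and 5 falls with BSA. Of these members 7 were higher with FGF10 than with BSA and 0 lower. Tnc, tenascin C, a matrix glycoprotein of moving epithelium and wounds, had 1.69, 2.9 and 1.76 CPM, 42.6, 68.8 and 51.7 CPM with FGF10 and 8.03, 10.8 and 17.1 CPM with BSA. Its 3 groups were apart from one another, with a rise of 4.74 ± 0.38 (adjusted p = 1.66e-06) and a difference from BSA of 2.18 ± 0.32 (adjusted p = 0.00506). Thrombospondin 1 (Thbs1) rose by 3.2 ± 0.34 (adjusted p = 1.05e-05) and the hyaluronan receptor Cd44 by 2.37 ± 0.21 (adjusted p = 1.68e-06). For neither Thbs1 nor Cd44 was the difference between the beads called. Vimentin (Vim), the mesenchymal filament that basal cells also carry, had 86.2, 102 and 51.9 CPM and then 79.6, 70.0 and 127 CPM (0.21 ± 0.38, adjusted p = 0.7), with overlap between the groups. Fibronectin (Fn1) rose from 9.67, 6.48 and 2.59 CPM to 13.3, 22.1 and 17.4 CPM (1.49 ± 0.38, adjusted p = 0.00804), and BSA libraries had 28.6, 17.9 and 16.3 CPM. Ccn1 and Ccn2, matricellular targets of YAP that serum and handling also induce, fell by 2.74 and 2.6 on the log2 scale (adjusted p = 3.93e-06 and 3.97e-05).

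Of 18 integrin and kindlin genes 5 rose and 3 fell (27.8% and 16.7%, against 19.3% and 20.5% of all genes). Of the 18 genes, 4 were higher and 1 lower than with BSA. Integrin alpha 2 (Itga2), a collagen receptor, had 13.1, 9.87 and 11.7 CPM, 26.5, 31.5 and 25.2 CPM with FGF10 and 13.1, 12.3 and 16.2 CPM with BSA (1.26 ± 0.15, adjusted p = 2.3e-05, and against BSA 1.0 ± 0.15, adjusted p = 0.00423). FGF10 libraries lay above all of the others. Kindlin-1 (Fermt1), which activates integrins in epithelium, rose from 78.2, 103 and 71.7 CPM to 198, 307 and 378 CPM (1.8 ± 0.22, adjusted p = 2.79e-05) and exceeded BSA (1.3 ± 0.22, adjusted p = 0.00716). Integrin alpha 3 (Itga3), a laminin receptor, was not called against 0 h (0.35 ± 0.16, adjusted p = 0.0882), yet BSA libraries fell (-0.94 ± 0.16, adjusted p = 0.000546) and FGF10 exceeded them (1.28 ± 0.16, adjusted p = 0.00141). Integrin alpha 1 (Itga1), common in stromal cells, fell by 2.86 on the log2 scale (adjusted p = 2.71e-05).

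Of 23 laminins and basement membrane collagens 6 rose and 7 fell (26.1% and 30.4%, against 19.3% and 20.5% of all genes). The falls numbered 4 without FGF10 replicate 1. Col18a1, the precursor of endostatin, had 32.5, 21.8 and 18.1 CPM, 90.3, 88.8 and 106 CPM with FGF10 and 25.5, 31.8 and 28.9 CPM with BSA. It rose by 1.98 ± 0.24 (adjusted p = 2.94e-05) and exceeded BSA by 1.73 ± 0.24 (adjusted p = 0.00268), with the FGF10 libraries far above both other groups. The collagen IV chain Col4a1, which vessels and stroma make in quantity, went from 131, 46 and 65.3 CPM to 21.8, 16.7 and 26.9 CPM (-1.89 ± 0.33, adjusted p = 0.000665).

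Of 28 matrix proteases and inhibitors 7 rose and 9 fell (median 0.27), or 25% and 32.1% against 19.3% and 20.5% of all genes. The gelatinase Mmp2 fell from 33, 43.3 and 20.6 CPM to 8.04, 4.55 and 5.76 CPM (-2.4 ± 0.30, adjusted p = 4.4e-05) and was lower than with BSA (-1.39 ± 0.30, adjusted p = 0.026). Membrane-bound Mmp14 fell by 0.71 on the log2 scale (adjusted p = 0.000491). Timp1, an inhibitor of these proteases, went from 14.7, 9.39 and 7.26 CPM to 77.7, 75 and 104 CPM (3.02 ± 0.26, adjusted p = 2e-06) and exceeded BSA (1.3 ± 0.25, adjusted p = 0.0141). The serpin maspin (Serpinb5) rose by 1.57 ± 0.14 (adjusted p = 1.66e-06).

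Of 40 actin and motility genes 13 rose and 5 fell (median 0.3), or 5 rose in a fit of only these groups, whereas with BSA 6 rose and 10 fell. Tropomyosin 4 (Tpm4) went from 359, 256 and 305 CPM to 825, 763 and 777 CPM with FGF10 and 424, 467 and 443 CPM with BSA (1.36 ± 0.15, adjusted p = 1.12e-05, and against BSA 0.83 ± 0.15, adjusted p = 0.01). All FGF10 libraries lay above all of the others. Moesin (Msn), which links actin to the membrane, rose by 1.6 ± 0.18 (adjusted p = 1.66e-05). The thymosins split, as Tmsb10 rose by 1.64 ± 0.22 (adjusted p = 5.85e-05) and Tmsb4x fell from 12430, 13190 and 16140 CPM to 3292, 3301 and 4582 CPM (-1.9 ± 0.24, adjusted p = 3.68e-05). Tmsb4x is abundant in leukocytes, of whose 16 markers 13 fell, and their part was not tested.

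Targets and feedback genes of FGF-ERK signalling were higher with FGF10 than with BSA in 3 of 20 cases, against 0.954% of all genes. Against 0 h 4 rose (20%, near the 19.3% of all genes) and 7 fell (35%, against 20.5%), with a median of -0.24, and 3 rose and 10 fell with BSA (median -0.85). Dusp6 had 103, 143 and 135 CPM at 0 h, 72.6, 69.1 and 36.8 CPM with FGF10 and 26.1, 24.6 and 30.8 CPM with BSA. It fell with both beads (-1.1 ± 0.22, adjusted p = 0.00156, and -2.23 ± 0.23, adjusted p = 1.09e-05), and less with FGF10 (1.13 ± 0.23, adjusted p = 0.0196), a difference not called without BSA replicate 2, BSA replicate 3 or FGF10 replicate 1 (adjusted p up to 0.0709). Etv4 had 7.56, 4.36 and 7.15 CPM, 11.3, 12.8 and 5.88 CPM with FGF10 and 3.57, 3.47 and 3.15 CPM with BSA. Against 0 h it was not called (0.64 ± 0.31, adjusted p = 0.115) except without FGF10 replicate 4 (adjusted p = 0.024) and in limma voom (0.026), and it exceeded BSA (1.55 ± 0.32, adjusted p = 0.023). That difference was lost without BSA replicate 2, BSA replicate 3, FGF10 replicate 1 or FGF10 replicate 3 (adjusted p up to 0.101). Dusp7, another ERK phosphatase, rose (0.74 ± 0.15, adjusted p = 0.00118) and exceeded BSA (0.93 ± 0.15, adjusted p = 0.00562). Etv5 (0.1 ± 0.29, adjusted p = 0.813), Spry2 (-0.26 ± 0.45, adjusted p = 0.681) and Spry4 (-0.23 ± 0.27, adjusted p = 0.52) missed the threshold, although Etv5 was called without 0 h replicate 1 (0.62 ± 0.22, adjusted p = 0.0412). Spry1 fell from 28.6, 29.8 and 25.7 CPM to 7.45, 9.76 and 6.64 CPM (-1.81 ± 0.20, adjusted p = 1.05e-05). Fosl1, an AP-1 subunit stabilised by ERK, rose from 0.0845, 0.774 and 0.550 CPM to 4.25, 4.88 and 6.2 CPM (3.58 ± 0.58, adjusted p = 0.000288). Its difference between the beads was not called.

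The receptor for FGF10 fell. Fgfr2 had 437, 475 and 637 CPM at 0 h and 86.1, 89.5 and 52.4 CPM with FGF10 (-2.76 ± 0.21, adjusted p = 5.2e-07), and it also fell with BSA (-2.85 ± 0.21, adjusted p = 5.52e-07). The difference between the beads was not called (0.09 ± 0.20, adjusted p = 0.833). Counts cover all isoforms of the gene. Of 17 FGF receptor, ligand and co-receptor genes 4 rose and 6 fell (23.5% and 35.3%, against 19.3% and 20.5% of all genes). Syndecan 1 (Sdc1), a heparan sulfate carrier that can present FGFs, had 166, 129.6 and 136 CPM, 444, 528 and 459.5 CPM with FGF10 and 192, 182 and 206 CPM with BSA (1.73 ± 0.19, adjusted p = 9.8e-06, and against BSA 1.3 ± 0.18, adjusted p = 0.00272). FGF10 libraries stood apart from both of the other groups. Fgfbp1, which releases FGFs from the matrix, rose from 2.11, 4.84 and 3.52 CPM to 109, 106 and 186 CPM (5.31 ± 0.38, adjusted p = 7.53e-07). Its difference between the beads was not called.

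In the EGF family, the ligands Epgn, Nrg1 and Hbegf rose and the receptors Erbb2 and Erbb4 fell. Epgn, epigen, had 0.0845, 0.387 and 0.330 CPM and then 15.2, 43.9 and 33.9 CPM (7.0 ± 0.83, adjusted p = 5.77e-05). Nrg1, neuregulin 1, rose from 9.42, 1.55 and 3.58 CPM to 25.5, 16.9 and 19.7 CPM (2.04 ± 0.42, adjusted p = 0.00206), and Hbegf by 1.34 ± 0.31 (adjusted p = 0.00323). Erbb2 (-1.25 ± 0.15, adjusted p = 2.55e-05) and Erbb4 (-3.55 ± 0.46, adjusted p = 4.02e-05) fell, Erbb4 to less than with BSA (-2.05 ± 0.47, adjusted p = 0.0355). Over the whole list 5 of 16 members rose and 5 fell.

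WNT genes rose in 3 of 22 cases and fell in 7, or 4 without FGF10 replicate 4. The ligand Wnt10a rose from 2.45, 2.9 and 9.41 CPM to 42.3, 42.8 and 71.3 CPM (3.39 ± 0.42, adjusted p = 5.66e-05), the secreted antagonist Sfrp2 fell by 2.56 on the log2 scale (adjusted p = 3.68e-05), and the transcription factor Tcf7 rose (1.17 ± 0.21, adjusted p = 0.000497) and exceeded BSA (0.97 ± 0.20, adjusted p = 0.0234). The NOTCH ligand Jag1 went from 14.5, 12.1 and 12.4 CPM to 44.4, 40.4 and 28.9 CPM (1.53 ± 0.18, adjusted p = 1.76e-05) and exceeded BSA (0.86 ± 0.17, adjusted p = 0.0205), and 2 of 17 NOTCH genes rose and 6 fell, or 3 fell without 0 h replicate 2 and 2 without FGF10 replicate 1. Of 31 TGF-beta, activin and BMP genes 6 rose (19.4%) and 7 fell (22.6%), near the shares of all genes. Fst, follistatin, which binds activin, had 42.6, 32.6 and 33.1 CPM, 118, 126 and 207 CPM with FGF10 and 44.7, 45.5 and 53.5 CPM with BSA (2.06 ± 0.21, adjusted p = 6.05e-06). FGF10 libraries were above all of the others, and the difference from BSA was 1.65 ± 0.21 (adjusted p = 0.00142). Tgfb3 fell by 1.58 on the log2 scale (adjusted p = 3.61e-06).

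Of 12 IGF-binding proteins and receptors 1 rose and 6 fell. Igfbp5, which is known to bind IGF ligands and to rise in the involuting gland, had 666, 1034 and 724 CPM at 0 h, 154, 169 and 289.8 CPM with FGF10 and 727, 809 and 669 CPM with BSA. Its fall with FGF10 was called (-1.98 ± 0.30, adjusted p = 0.000168), that with BSA was not (-0.14 ± 0.29, adjusted p = 0.767), and the beads differed (-1.85 ± 0.30, adjusted p = 0.00646). Igfbp3 was the rise (2.5 ± 0.51, adjusted p = 0.00235), highest in FGF10 replicate 1. Without 0 h replicate 1, or without FGF10 replicate 3, 2 members rose. Of 23 guidance genes 4 rose and 6 fell (17.4% and 26.1%, near the 19.3% and 20.5% of all genes). The rises numbered 2 without 0 h replicate 4. Slit2, a repellent ligand, rose by 1.66 ± 0.25 (adjusted p = 0.000139), and Slit3 (-2.82 ± 0.50, adjusted p = 0.000548) and the semaphorin receptor Nrp1 (-2.77 ± 0.55, adjusted p = 0.00151) fell. Of 15 YAP and TEAD targets 3 rose and 6 fell (20% and 40%).

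Of 14 alarmins and IL-20 family cytokines 8 rose and 0 fell (median 1.66), and 1 fell without FGF10 replicate 1 or BSA replicate 1. With BSA 7 rose and 0 fell, and 2 members were higher with FGF10 than with BSA. Tslp, an alarmin that epithelium sends to dendritic cells, had 1.1, 0.677 and 1.54 CPM, 8.3, 22.1 and 20.1 CPM with FGF10 and 1.78, 1.62 and 1.84 CPM with BSA. It rose with FGF10 (3.88 ± 0.49, adjusted p = 3.97e-05), was not called with BSA (0.61 ± 0.50, adjusted p = 0.392) and differed between the beads (3.26 ± 0.47, adjusted p = 0.00332). Every FGF10 library lay above every BSA library. Il24 had no counts at 0 h, and its FGF10 libraries all lay above its BSA libraries (0.654, 0.560 and 1.25 CPM), with a difference of 3.02 ± 0.61 (adjusted p = 0.0244).

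Of 17 chemokines 9 rose and 3 fell (median 1.56), or 5 rose in limma voom. With BSA 12 rose and 2 fell (median 2.12), and 2 members were lower with FGF10 than with BSA and 0 higher. Cxcl16 rose by 1.43 ± 0.19 (adjusted p = 5.88e-05), and Cxcl14, which normal breast epithelium expresses, fell from 214, 694 and 494 CPM to 30.1, 45 and 70.5 CPM (-3.27 ± 0.52, adjusted p = 0.000455). Of 21 NF-kB and inflammatory enzyme genes 6 rose and 1 fell, with 3 rises without 0 h replicate 1 and 2 without FGF10 replicate 1. The fall was lost without 0 h replicate 2, FGF10 replicate 3 or FGF10 replicate 4, and 2 fell without BSA replicate 1. With BSA 3 of these genes rose and 1 fell, and no member differed between the beads. The prostaglandin enzyme Ptgs2 rose from 0.338, 1.26 and 0.165 CPM to 21.2, 45.3 and 12.3 CPM (5.74 ± 0.84, adjusted p = 0.000321). Secreted antimicrobial and acute phase genes rose in 5 of 18 cases and fell in 2. The rises numbered 3 without 0 h replicate 1, 0 h replicate 4 or FGF10 replicate 1. With BSA 7 rose and 2 fell, and 1 member was higher with FGF10 than with BSA. Slpi rose from 34.8, 414 and 230.2 CPM to 2790, 1272 and 2765 CPM (3.33 ± 0.64, adjusted p = 0.00157), and haptoglobin (Hp) by 3.96 ± 0.81 (adjusted p = 0.00248), most in FGF10 replicate 1. The defensin Defb1 fell by 5.31 on the log2 scale (adjusted p = 0.0011). Of 27 interferon-stimulated genes 8 rose and 1 fell, and without 0 h replicate 2, 0 h replicate 4 or FGF10 replicate 1 the rises numbered 5, 3 and 4, and the fall was lost without 0 h replicate 1 or 2. With BSA 11 of the interferon-stimulated genes rose and 1 fell, and no member differed between the beads. Isg15 rose with FGF10 by 1.7 ± 0.42 (adjusted p = 0.00745).

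Markers of vessels, leukocytes, pericytes, fibroblasts and red cells were present at 0 h and mostly fell, whereas those of Schwann cells and adipocytes were called less evenly. Of 17 tested endothelial markers 14 fell (median -4.58), from sums of 106 to 619.8 CPM at 0 h to 26.1 to 48 CPM with FGF10, although limma voom called 2. Macrophage and leukocyte markers fell in 13 of 16 cases, from sums of 676 to 796 CPM to 294 to 561 CPM. All 7 class II antigen presentation genes fell (median -5.0), among them the invariant chain Cd74 from 996, 1279 and 1368 CPM to 21.3, 26.9 and 50.2 CPM (-5.21 ± 0.29, adjusted p = 3.83e-08). The leukocyte antigen Ptprc went from 6.04, 6.29 and 8.64 CPM to 0.719, 0.329 and 0.569 CPM (-3.7 ± 0.43, adjusted p = 1.88e-05). Pericyte markers fell in 7 of 7 cases, or 4 without FGF10 replicate 1 or without a count filter, 3 in a fit of only these groups and 2 in limma voom, and erythroid genes in 5 of 5, with Hbb-bs (paralogs share reads) at 1276 counts at 0 h and 3 with FGF10, a ratio of 402 (137 to 1950). Lymphocyte markers fell in 3 of 4 cases, and of 4 Schwann markers 2 fell, or 1 without 0 h replicate 1, 0 h replicate 2, FGF10 replicate 3 or FGF10 replicate 4. Schwann sums of 138 to 145 CPM at 0 h and 106 to 160.2 CPM with FGF10 overlapped. Of 11 adipocyte markers 3 fell, from sums of 78.5 to 572 CPM to 21.8 to 30.5 CPM, and 8 were not called. Without 0 h replicate 1 others rose in 2 cases, and the adipocyte median went from -1.55 to 0.09. Among tested members of these lists, the adipocyte hormone Lep and Hbb-bt had 0 counts over the FGF10 group. Of 15 epithelial markers 4 rose and 6 fell (median -0.3), and these counts became 2 and 2 without 0 h replicate 2 and 2 and 3 without FGF10 replicate 1. With BSA, 9 of 17 endothelial (median -2.56), 13 of 16 leukocyte, 7 of 7 class II and 12 of 20 fibroblast markers fell. Also with BSA, 3 of 7 pericyte and 5 of 5 erythroid markers fell. Between the beads, 1 class II and 1 adipocyte marker were lower with FGF10, and no other marker of these lists differed. What part the loss of non-epithelial RNA had in the other changes was not tested.

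Some genes were called against 0 h, called in the same direction against BSA and not called with BSA against 0 h. Low genes (a mean under 5 CPM in both groups) and genes whose 0 h and FGF10 libraries overlapped were set aside. By change from 0 h, the largest rises of the rest were Tslp, Cdh2, Fst and Col18a1, described above, and Lgals1. Lgals1, galectin 1, had 215, 144 and 177 CPM at 0 h, 480.1, 425 and 1062 CPM with FGF10 and 153, 266 and 208 CPM with BSA (1.88 ± 0.30, adjusted p = 0.000266, and against BSA 1.65 ± 0.30, adjusted p = 0.0105). FGF10 replicate 4 was highest, and all FGF10 libraries lay above the others. The largest falls within the same limits were Hepacam2, C4b, Fam180a, Prrt1 and Cck. The complement gene C4b had 8.28, 22.4 and 14.4 CPM, 0.980, 1.53 and 1.52 CPM with FGF10 and 6.36, 9.86 and 9.99 CPM with BSA (-3.45 ± 0.41, adjusted p = 2.42e-05, and against BSA -2.69 ± 0.41, adjusted p = 0.00472). Hepacam2, an adhesion molecule of secretory cells, fell by 4.35 on the log2 scale (adjusted p = 0.000421), and the hormone gene Cck by 2.63 (adjusted p = 0.00355). The difference of Hepacam2 from BSA was called in only 7 of 17 alternatives (adjusted p up to 0.134 when 1 library was left out). For these 10 genes the rule required that FGF10 and 0 h libraries not overlap. The required call against BSA also favoured separation from the BSA libraries, so neither separation is a further result.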

How the data were processed

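RNA-seq counts per gene came from 1 table that the authors deposited, made with featureCounts 2.0.1 per the file headers, unstranded and without multi-mapping reads, so overlapping antisense genes cannot be separated. The submitters' processing notes also name cutadapt 1.9.1, HISAT2 2.2.1, FastQC, HTSeq, DESeq2 and the GRCm39 build. Genes were kept by edgeR's filter (10 counts in enough libraries, 15 in total, 18140 of 54456) and tested with the edgeR 4.0.16 quasi-likelihood test over all 15 libraries in 5 groups (BSA 72 h libraries 2_1 and 2_2 as separate samples), with Benjamini-Hochberg adjustment. limma 3.58.1 (voom) and DESeq2 1.42.0 were alternatives, beside size-factor scaling, other filters, a replicate block, a fit of only the groups compared and leaving out each library. On simulated counts for 17723 genes, 61 of 100 2-fold and 91 of 100 4-fold changes were recovered, and 1.94% of calls were false. Only genes averaging above 5 CPM were changed, equally often up and down, and no library was made to deviate. These rates need not hold for low genes or for data with 39.8% of genes called.

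Named genes were the 12 largest rises and falls of at least 5 CPM without overlap between libraries. To this rule 13373 genes were open, by names found in the RefSeq table for 16472. Also named were up to 4 called and 2 uncalled members per direction of each list, and a panel of EMT, lineage and FGF genes. Added were the 5 largest rises and falls that also differed between the beads and were not called with BSA against 0 h. The 3 genes moved most by 0 h replicate 1 were named as well. Hmgcs1 and Hbb-bt fall outside the rule and were named after their values were seen. Members and lists were chosen with earlier results of these data known. Promoter windows were read from RefSeq sequences of GRCm38.p6, which is not the build of the counts. Intervals of ratios are exact 95% intervals and cover counting error only. A few results are not reported here.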

Additional observations from a re-analysis of the deposited data

Results flagged for a closer look

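Genes were marked for a closer look where FGF10 36 h differed from BSA 36 h in the edgeR test of that difference itself (Benjamini-Hochberg adjusted p under 0.05), since both groups were 36 h old. The values in brackets are log2 differences, FGF10 36 h minus BSA 36 h, over 3 libraries per group.

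Those higher with FGF10 included secreted and matrix proteins, Tslp (3.26), Il24 (3.02), Tnc (2.18), Col18a1 (1.73), Lgals1 (1.65), Fst (1.65), Spp1 (1.36) and Timp1 (1.3). Adhesion genes higher with FGF10 were Cdh2 (2.11), Dsc3 (1.45), Dsg3 (1.33), Sdc1 (1.3), Fermt1 (1.3), Itga3 (1.28), Itga2 (1.00) and Itgb4 (0.59). Signalling and transcription genes were Id4 (2.17), Etv4 (1.55), Dusp6 (1.13), Tcf7 (0.97), Dusp7 (0.93), Jag1 (0.86) and Klf5 (0.48). Lipid synthesis genes were Hmgcs1 (1.17), Fdps (1.11), Msmo1 (1.11), Elovl6 (1.10), Cyp51 (0.89) and Fasn (0.89). Keratin, protease inhibitor and cytoskeleton genes were Serpinb2 (2.39), Wfdc2 (1.99), Krt6a (1.91), Cald1 (0.87), Tpm4 (0.83) and Msn (0.75).

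Those lower with FGF10 were Prrt1 (-3.45), Cck (-3.35), Hepacam2 (-2.99), Fam180a (-2.69), C4b (-2.69), Erbb4 (-2.05), Igfbp5 (-1.85), Btn1a1 (-1.83), Mmp2 (-1.39), Txnip (-1.23), Sbsn (-1.07), Aldoc (-1.03), Oxtr (-0.98) and Tgfb3 (-0.61). Lep had 0 counts with FGF10, so its fitted value (-6.30) is no bound.

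Calls were lost in part when 1 library was left out. Among these genes, 11 lost the call without BSA replicate 1, 10 without FGF10 replicate 3, 8 without FGF10 replicate 4, 5 without 0 h replicate 4 and 2 without 0 h replicate 2, beside the losses given above for BSA replicates 2 and 3 and FGF10 replicate 1. In a fit of only the 2 groups 32 lost it, and 9 did when 2_1 and 2_2 of BSA 72 h were counted as 1 sample.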

How the results depend on the processing

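The count of genes called in FGF10 36 h against 0 h (7225) stayed within 1.5 times in every alternative but the fit of only these groups, which called 3847 (1647 higher, 2200 lower). Leaving out 1 library gave 5875 to 7464 calls. FGF10 36 h against BSA 36 h (425 calls) gave 78 in the fit of only these groups, 1415 with limma voom, 1088 with DESeq2 and 127 to 852 when 1 library was left out. Why these counts moved was not tested, beyond the smaller number of libraries in some fits. Of 187 genes named, 153 of the 171 called kept their call in all alternatives, 9 of the 16 uncalled gained one, and none reversed. Most of the called ones were picked for small p-values or large changes, so these counts do not measure how stable all calls were. Of 120 counts of list members, 71 stayed within 1.5 times. DNA replication genes called higher (27) were 8 without the count filter, 4 in the fit of only these groups, 40 with limma voom and 38 with the replicate block. The same counts for mitosis genes (9) were 5, 1, 39 and 38, and DESeq2 gave 23.

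The labels do not say what a replicate number marks. The 0 h and FGF10 36 h groups share the numbers 1 and 4 (r of same-numbered deviations 0.129 and -0.162 across genes), and the FGF10 36 h and BSA 36 h groups share 1 and 3, whose libraries did deviate together (r = 0.525 and 0.326). A pair of shared numbers was taken as too few to show a pairing, so the numbers were not used as pairs. A fit with the replicate block called 7580 genes against 0 h (3701 higher, 3879 lower), with Mki67, Cdk1, Ccnb1 and Ankle1 called (adjusted p = 0.0229, 0.0469, 0.0261 and 0.0445), and 479 between the beads. The block ended the bead calls of Erbb4, Hepacam2, Itgb4, Klf5, Krt6a, Msn, Oxtr, Spp1 and Tgfb3 (adjusted p = 0.0553 to 0.0921).

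The BSA 72 h libraries 2_1 and 2_2 share a number and were counted as separate samples. Their counts differed by more than sampling noise (mean chi-square per gene 4.6, against 12.9 and 10.5 with replicate 3), but whether they came from 1 culture was not given. Summed and counted as 1 sample, an alternative chosen after seeing the data, they left 6984 calls against 0 h and 286 between the beads. Depth limits genes of a few counts, where a ratio's interval spans an order of magnitude.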

Other observations

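Of 80 tested cytosolic ribosomal protein genes, 19 rose and 4 fell (median 0.06), with many processed copies making single values uncertain. The rises numbered 11 without 0 h replicate 2, 8 without 0 h replicate 4 and 9 without FGF10 replicate 4, and the falls numbered 8 without FGF10 replicate 4 and 2 without 0 h replicate 2. With BSA 7 rose and 1 fell, and no member differed between the beads. The ER stress motif CCACG was in 13 of 15 promoter windows of unfolded protein response genes (86.7%) and in 32.8% of all windows, and the ETS motif CCGGAAGT was in 7 of 30 windows of ribosome biogenesis genes (23.3%) and in 3.89% of all windows, both searched on either strand.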
